A study of Mus musculus with 6 samples.

Results

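*Trp53*, the gene of the transcription factor p53, and 9 of its target genes outside the BCL2 family were followed in CD8+ T cells of WT mice and of BIT mice. The members were the rows of the count table with the symbols *Trp53*, *Cdkn1a*, *Mdm2*, *Ccng1*, *Zmat3*, *Phlda3*, *Sesn2*, *Aen*, *Trp53inp1* and *Eda2r*, and all 10 were found among its 78275 genes. The rule used their names, and the list was drawn up with earlier results of these data known. RNA came from CD4-CD8+ TCRβhigh T cells that had been sorted to a purity stated in the labels as above 98%, from 3 WT and 3 BIT mice aged 9 to 10 weeks, with 1 library per mouse. WT mice were wild type on the C57BL/6 (B6) background. BIT mice were, on the same background, homozygous for the β5iβ5t allele, in which sequence of *Psmb11*, the gene of the thymoproteasome subunit β5t, was placed at the start of translation in the first exon of *Psmb8*, the gene of the immunoproteasome subunit β5i. The insert is thus expressed from the *Psmb8* locus in every cell that uses it and not in T cells alone. The study used a single BIT line, BIT #1-2, wherever it does not say otherwise. The labels name lymph nodes as the tissue in one place and lymph nodes with spleens in another. The paper's methods for RNA sequencing give lymph nodes alone. They state a purity above 98%, with lymph nodes and spleens, for the cells of the TCR sequencing.

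The protein p53 is held at a low level in unstressed cells by the ubiquitin ligase MDM2, whose gene is itself a p53 target, so that the pair forms a feedback loop. After DNA damage and other stresses p53 accumulates, binds paired copies of a short consensus site near its targets, and raises genes that stop the cell cycle, repair DNA, alter metabolism or start apoptosis. It is regulated mostly at the level of the protein, and in T cells it is known for removing thymocytes with damaged DNA and for limiting the expansion of activated cells.

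Where the genome near these genes holds a p53 site was read from the GRCm39 assembly, within 3000 bases of the start site of each canonical transcript in Gencode M39. A site was taken as 2 abutting copies of the p53 consensus site of 10 bases, with both cores of 4 bases intact and no more than 2 other mismatches. It was found in 3 members, which are shown because each is a target that was measured below. In the sequences, which read 5′ to 3′ on the strand of the gene, the capitals mark the 2 cores.
*Cdkn1a*, chr17:29309902-29309921, plus strand, 2836 bases upstream of the start site: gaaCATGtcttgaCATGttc
*Ccng1*, chr11:40645763-40645782, minus strand, in intron 1, 356 bases past the start site: acgCAAGcccgggCTAGtct
*Zmat3*, chr3:32418480-32418499, minus strand, in intron 1, 1409 bases past the start site: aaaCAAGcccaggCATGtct
The *Zmat3* site had 0 mismatches to the consensus and the other two had 1. Among 21757 protein-coding genes searched in windows of the same length, 23 (0.106%) held a site with 0 mismatches, 153 (0.703%) one with up to 1, and 774 (3.56%) one with up to 2. The consensus is its own reverse complement, so both strands were read at once. A match of letters is not evidence of binding, and the other 7 members may hold sites outside the window or with a spacer between the copies.

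The libraries held between 37467678 and 52922675 estimated counts, and levels are given as CPM, the estimated count when the library total is scaled to 1000000. A count of 0 allows up to 3 counts, which is 0.0567 CPM in the deepest and 0.0801 CPM in the shallowest library, limits that cover counting error only. The engineered locus read as labelled, with 8024 to 10790 counts of *Psmb8* in WT and 59 to 73 in BIT libraries, and 0 counts of *Psmb11* in WT against 1226 to 1926 in BIT. The 6 CD8 T cell markers summed to between 4140 and 4520 CPM in WT and between 4250 and 4500 CPM in BIT libraries, and none of them was at 0. Markers of other cells were low, with 4 CD4 T cell genes at 3.62 to 5.68 CPM in WT and 3.22 to 4.48 CPM in BIT, and 6 B cell genes at 30.2 to 40.0 and 24.2 to 31.2 CPM. WT replicate 3 stood apart. Its mouse is labelled male, but *Xist* reached 66626 counts in its library against 2 to 125 elsewhere, with the 125 in BIT replicate 3. In WT replicate 3, 4 genes of the Y chromosome had 0 counts, against 8474 to 12329 elsewhere. These are the counts of a female mouse, so sex was not balanced between the genotypes, and no fit had a term for it. The 3 NK cell markers of that library summed to 63.4 CPM against 4.67 to 9.63 CPM elsewhere. That sum was nearly all *Gzma*, a granzyme with 2444 counts there and 152 to 427 elsewhere, while *Ncr1* with 11 and *Klrb1c* with 77 counts did not exceed their highest counts in the other libraries, 21 and 84. In a principal component analysis it lay, on the component with the largest share of variance (34.4%), with BIT replicate 3 on the positive side, away from the other 4 libraries. Log2 differences without that mouse are therefore also given below for the members with counts and for *Plk2*, *Bbc3* and *Pmaip1*.

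Per length of transcript, *Trp53* itself was the highest of the 10 genes. Its median level over the 6 libraries was 79.2 RPKM, the CPM per kilobase of the canonical transcript, at the 96.5th percentile of the genes tested. Below it came *Trp53inp1* with 42.0, *Ccng1* with 37.5 and *Mdm2* with 17.2 RPKM, then *Zmat3* with 4.30, *Aen* with 3.16 and *Sesn2* with 1.23 RPKM, and at the bottom *Phlda3* with 0.451, *Cdkn1a* with 0.083 and *Eda2r* with 0 RPKM. The targets thus lay between 0 counts in every library and the 92.8th percentile, reached by *Trp53inp1*, and the cell cycle inhibitor *Cdkn1a* was near the lower end.

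**Figure D1:**
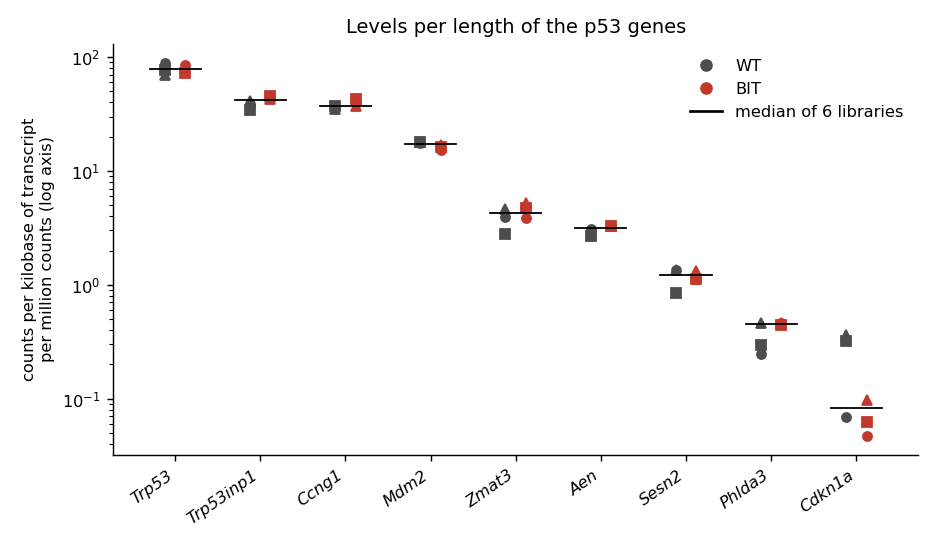
Level per length of transcript of 9 members, in RPKM on a log axis, with 1 point per library, a shape for each replicate number, a colour for each genotype and a line at the median of 6 libraries. *Trp53* lies highest, with 70.4 to 89.5 RPKM, and *Cdkn1a* lowest, and *Eda2r*, at 0 in all 6 libraries, cannot be drawn on the log axis.

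Neighbours in this order were not all distinct. The ranges over libraries overlapped between *Trp53inp1* and *Ccng1*, between *Zmat3* and *Aen*, and between *Phlda3* and *Cdkn1a*, and did not overlap between the other neighbours. Within single libraries *Zmat3* was above *Aen* in 6 of 6, *Trp53inp1* above *Ccng1* in 5 and *Phlda3* above *Cdkn1a* in 5. The order also depends on the length used. On the length of all annotated exons, *Trp53inp1* came first with a median of 35.8, then *Ccng1* with 29.9 and *Trp53* with 19.9 RPKM, and *Aen* passed *Zmat3*. The 10 genes together took between 0.0603% and 0.0701% of all counts of a library.

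BIT and WT mice were compared with limma-voom on quantile-normalized counts over the 16105 genes with enough counts, which left 8 of the 10 members in the test and *Cdkn1a* and *Eda2r* outside it. At the threshold of 0.05 on the adjusted p, 0 of the 8 members were called by limma-voom, 0 higher and 0 lower in BIT, where 0.137% of all genes were called, 0.0807% higher and 0.0559% lower. Their Benjamini-Hochberg adjusted p-values ran from 0.554 to 0.922. At an unadjusted p below 0.05 there were 2, *Phlda3* higher and *Mdm2* lower, beside 8.57% of all genes, 4.25% higher and 4.32% lower. Of the 8 members, edgeR's quasi-likelihood test called 0, beside 0.0869% of all genes, and DESeq2 called 0, beside 0.776%. At an unadjusted p below 0.05 edgeR gave 0 members, with 0.187 for *Phlda3* and 0.0926 for *Mdm2*, and DESeq2 gave 1, *Trp53inp1*. The share of all genes at this unadjusted threshold was taken for limma-voom only, so these counts have no share of their own beside them. The fitted log2 fold changes were positive in 6 and negative in 2, with a median of 0.13 and a median size of 0.17, against 0.01 and 0.15 over all genes tested. The 95% interval of the change lay wholly within 2-fold for 7 of the 8 and within 1.5-fold for 6, so that changes larger than these are outside the intervals of most tested members. The values below compare bulk RNA, in which fewer cells that use a gene and less RNA per cell cannot be told apart. The limma-voom p-values set each difference against the spread between 3 mice per genotype, which the fit moderates over all genes tested.

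**Figure D2:**
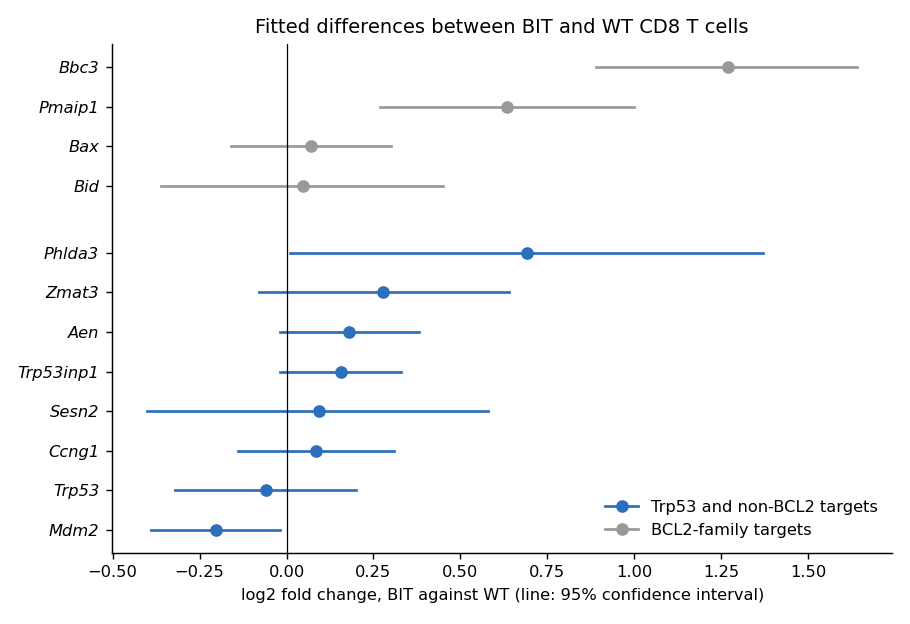
Log2 fold change, BIT against WT, of the 8 members tested and of the BCL2-family targets, with 95% intervals from limma-voom, 3 mice per genotype. The member farthest from 0 is *Phlda3* at 0.69, with the widest interval among the members, and *Bbc3* lies beyond all of them at 1.27.

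*Trp53* (ENSMUSG00000059552.14, chr11:69469669-69482701, plus strand) had 8762, 7291 and 5203 estimated counts in WT and 7036, 5614 and 5576 in BIT libraries. These are 166, 144 and 130 CPM in WT and 157, 133 and 149 CPM in BIT. The BIT mice lay within the range of the WT mice. The difference on the log2 scale was -0.06 with an SE of 0.116 and a 95% interval from -0.32 to 0.20 (limma-voom, adjusted p = 0.907), and the exact two-sided permutation test gave p = 0.8. Without WT replicate 3, the lowest library, it was -0.17 (adjusted p = 0.535). Of the annotated exon bases of *Trp53*, 3.56% are shared with *Wrap53* on the opposite strand, which stood at 0.02 on the log2 scale (limma-voom, adjusted p = 0.971), and its pseudogene *Trp53-ps* held 5.6 to 15 counts. The relatives *Trp63* and *Trp73*, which share its DNA-binding domain, had 0 to 3 counts in every library.

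Among the regulators, *Mdm2* (ENSMUSG00000020184.16, chr10:117524780-117546730, minus strand), the ligase that marks p53 for degradation, had 54.7, 55.7 and 56.1 CPM in WT and 47.5, 50.6 and 52.1 CPM in BIT libraries. All 3 BIT mice lay below all 3 WT mice, which held under each of the 3 scalings tried. BIT and WT differed by -0.20 on the log2 scale with an SE of 0.081 and an interval from -0.39 to -0.02, or 0.869-fold (limma-voom, unadjusted p = 0.0343, adjusted p = 0.554). Groups apart in this direction were seen in 5.96% of all genes. The exact permutation test gave p = 0.1, the smallest that 3 mice against 3 allow and the value of any groups that do not overlap. The ratio of *Mdm2* to *Trp53* per length was 0.228 ± 0.0301 in WT and 0.205 ± 0.0232 in BIT (SD, n = 3), so that *Trp53* RNA exceeded that of its inhibitor between 3.89 and 5.54 times in single libraries on the canonical transcripts. On the length of all annotated exons the gap was smaller, with medians of 19.9 RPKM for *Trp53* and 6.93 RPKM for *Mdm2*.

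*Mdm4*, the partner of MDM2 that holds p53 inactive without degrading it, differed by -0.02 on the log2 scale (limma-voom, adjusted p = 0.98), and by 0.03, with the opposite sign, under TMM scaling. *Usp7*, a deubiquitinase that stabilises MDM2, had the highest level per length of the 15 regulators listed, with a median of 55.5 RPKM, and a difference of 0.00 on the log2 scale (limma-voom, adjusted p = 0.997). Of the 14 regulators tested, among them the damage kinases *Atm*, *Atr*, *Chek1* and *Chek2*, 0 were called and 0 reached an unadjusted p below 0.05. The gene of the MDM2 inhibitor ARF, *Cdkn2a*, had 0 to 5 counts and was not tested.

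**Figure D3:**
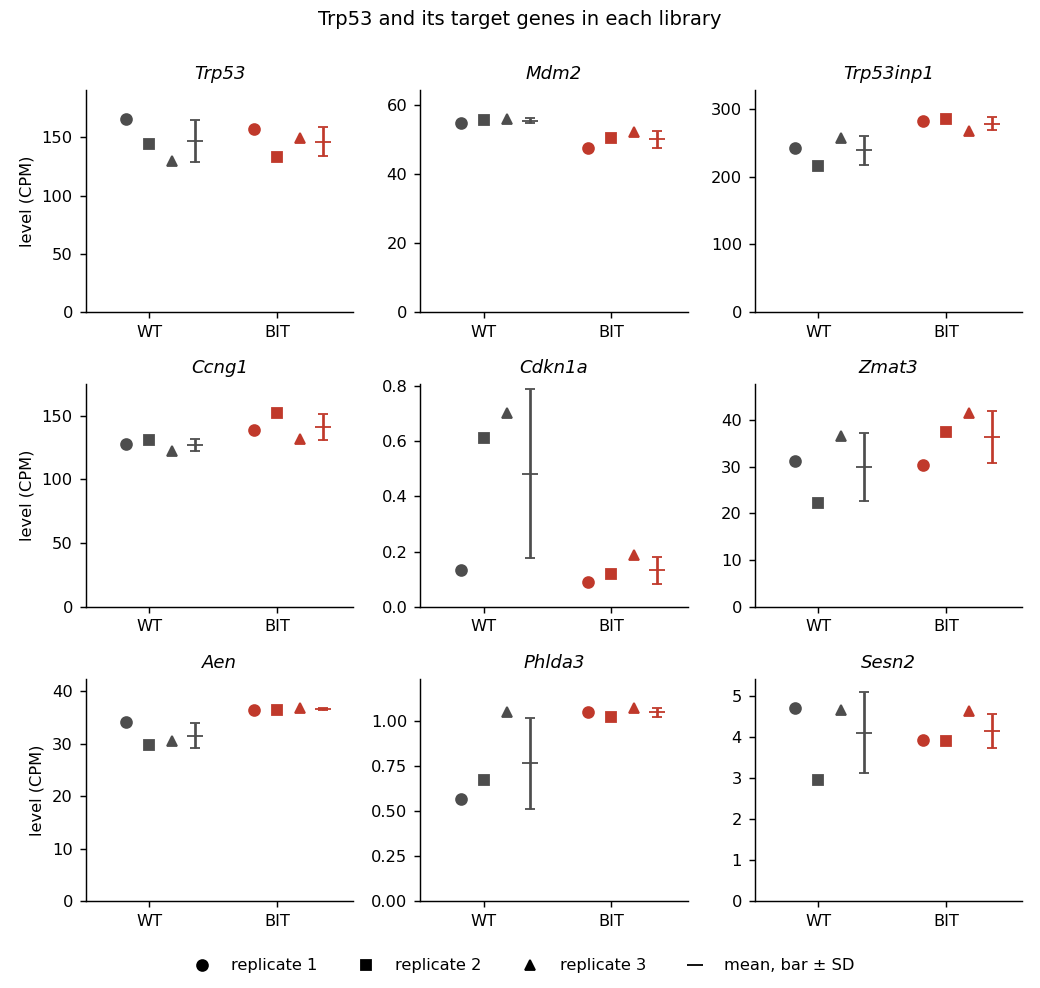
CPM in each of the 6 libraries, for the 9 members with counts, with 1 point per mouse and the mean with its SD per genotype. WT and BIT points do not overlap for *Mdm2*, where BIT is lower, or for *Ccng1*, *Aen* and *Trp53inp1*, where BIT is higher, on this scale of library totals.

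Of the cell cycle targets, *Cdkn1a* (ENSMUSG00000023067.15, chr17:29309936-29319701, plus strand) encodes p21, the inhibitor of cyclin-dependent kinases through which p53 halts the cycle. It had 7, 31 and 28 counts in WT and 4, 5 and 7 counts in BIT libraries, or 0.132, 0.613 and 0.701 CPM against 0.0894, 0.119 and 0.187 CPM. WT replicates 2 and 3 were high, and WT replicate 1 lay inside the BIT range. The means were 0.482 ± 0.306 and 0.132 ± 0.05 CPM (SD, n = 3), and the exact two-sided permutation test on the log2 CPM gave p = 0.2.

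Fitted without the filter on low counts, *Cdkn1a* differed by -1.26 on the log2 scale with an SE of 0.672 (limma-voom, adjusted p = 0.757). The count models gave a larger difference, at -1.85 with edgeR (unadjusted p = 0.00657, adjusted p = 0.34) and -1.87 with DESeq2 (unadjusted p = 0.0252, adjusted p = 0.583), and none passed the threshold. With each mouse left out the limma-voom value lay between -1.92 and -0.85, and it was -1.06 without WT replicate 3 (adjusted p = 0.704). The summed level of the 6 myeloid markers was highest in the same 2 WT libraries, at 16.7 and 17.9 CPM in WT replicates 2 and 3 against 11.5 CPM in WT replicate 1 and 8.27 to 12.2 CPM in BIT, and none of the 6 was at 0. The markers did not all move alike. *Itgam* had 197 counts in WT replicate 3 and 42 to 64 elsewhere. *Lyz2* had 250, 309 and 162 counts in WT replicates 1 to 3 and 136 to 141 in BIT libraries. The rest were each highest in WT replicates 2 and 3, as *Cdkn1a* was. In WT replicates 1 to 3 and in BIT libraries, *Csf1r* had 171, 281 and 207 counts against 115 to 153. *Adgre1* had 61, 87 and 63 against 16 to 42. *Cd14* had 9, 11 and 14 against 3 to 7, and *Fcer1g* 69, 91 and 73 against 36 to 63. The 5 markers tested were all lower in BIT in the fit, with a median log2 difference of -0.50, and 0 were called. The summed NK cell markers were also highest in WT replicates 2 and 3, at 9.63 and 63.4 CPM against 4.67 to 8.38 CPM in the other libraries. Of these markers *Gzma* had 427 and 2444 counts there and 152 to 258 elsewhere, while *Ncr1* and *Klrb1c* were not highest in both. The part of the myeloid or NK cell markers in the *Cdkn1a* values was not tested. *Dino*, a non-coding gene that shares 8.34% of the exon bases of *Cdkn1a* on the opposite strand, was at 0 in all libraries.

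The related inhibitor *Cdkn1b*, which encodes p27 and is held high in resting T cells, had a median of 40.2 RPKM, between 118 and 750 times the level per length of *Cdkn1a* in single libraries on the canonical transcripts. That ratio rests on 4 to 7 counts of *Cdkn1a* in 4 of the 6 libraries, and on the length of all annotated exons the medians were 40.2 and 0.0264 RPKM. It had 192 ± 4.67 CPM in WT and 162 ± 16 CPM in BIT (SD, n = 3), with all BIT mice below all WT mice. Its log2 difference was -0.31 with an SE of 0.0841 (limma-voom, unadjusted p = 0.00522, adjusted p = 0.424), which did not pass the threshold.

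*Ccng1* (ENSMUSG00000020326.8, chr11:40639377-40646148, minus strand) encodes cyclin G1, an atypical cyclin that recruits a phosphatase to MDM2, and carries the intron site printed above. It had 128, 131 and 122 CPM in WT and 139, 152 and 132 CPM in BIT libraries. The groups were just apart on library totals and overlapped after quantile normalization and with TMM. On the log2 scale the difference was 0.09 with an SE of 0.101 and an interval from -0.14 to 0.31 (limma-voom, adjusted p = 0.832). Its relative *Ccng2* had a log2 difference of -0.19 (adjusted p = 0.63).

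Of the 7 other cell cycle targets listed, 6 were tested, and *Plk2*, a polo-like kinase of the early damage response, had the largest difference. It had 60, 54 and 127 counts in WT and 14, 5 and 68 counts in BIT libraries. Replicate 3 was the highest of each genotype and the groups overlapped, and the log2 difference was -1.61 with an SE of 0.637 (limma-voom, unadjusted p = 0.0332, adjusted p = 0.553). With single mice left out it ran from -2.39 (without BIT replicate 3) to -0.95 (without BIT replicate 2), and no adjusted p was below 0.25. Without WT replicate 3 it was -1.31 (limma-voom, adjusted p = 0.452). *Btg2*, an antiproliferative gene and the highest per length in this list with a median of 48.2 RPKM, had a log2 difference of -0.14 (adjusted p = 0.748). None of the 6 was called, and their median log2 fold change was -0.19.

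*Zmat3* (ENSMUSG00000027663.14, chr3:32388941-32420163, minus strand), a zinc finger protein that binds RNA and acts in tumour suppression by p53, carries the only site found without a mismatch. It had 31.1, 22.1 and 36.6 CPM in WT and 30.4, 37.4 and 41.4 CPM in BIT libraries. WT replicate 2 was low and the groups overlapped. The log2 difference was 0.28 with an SE of 0.159 and an interval from -0.08 to 0.64 (limma-voom, adjusted p = 0.667), and with single mice left out it ran from 0.11 without WT replicate 2 (adjusted p = 0.994) to 0.41 without WT replicate 3 (adjusted p = 0.362).

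Of the members tied to cell death or its control, *Phlda3* (ENSMUSG00000041801.6, chr1:135693809-135697686, plus strand), which encodes a protein that competes with the kinase AKT for membrane lipids, had 30, 34 and 42 counts in WT and 47, 43 and 40 counts in BIT libraries. After quantile normalization all BIT mice lay above all WT mice, while on library totals WT replicate 3 at 1.05 CPM fell among the BIT mice at 1.02 to 1.07 CPM. The fit gave a log2 difference of 0.69 with an SE of 0.30 and an interval from 0.01 to 1.37 (limma-voom, unadjusted p = 0.0473, adjusted p = 0.575). At this depth the interval covers values from almost no change to beyond 2-fold.

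*Aen* (ENSMUSG00000030609.19, chr7:78545602-78560957, plus strand), which encodes a nuclease that digests DNA in apoptosis, had 34.2, 29.7 and 30.6 CPM in WT and 36.4, 36.5 and 36.8 CPM in BIT libraries. The BIT mice were close to each other and above the WT mice, except that the groups overlapped with TMM scaling. The log2 difference was 0.18 with an SE of 0.0878 and an interval from -0.02 to 0.38 (limma-voom, adjusted p = 0.63). The lncRNA gene *Gm73250* shares 10.7% of its exon bases on the opposite strand, with 10 to 25 counts.

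*Trp53inp1* (ENSMUSG00000028211.12, chr4:11156412-11175230, plus strand), a stress protein that acts in autophagy and apoptosis and in turn modifies p53 activity, had 243, 216 and 258 CPM in WT and 282, 286 and 268 CPM in BIT libraries. All BIT mice lay above all WT mice under each of the 3 scalings. The log2 difference was 0.16 with an SE of 0.0773 and an interval from -0.02 to 0.33, or 1.12-fold (limma-voom, unadjusted p = 0.0723, adjusted p = 0.63).

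*Eda2r* (ENSMUSG00000034457.11, chrX:96320270-96420847, minus strand), the receptor of the ligand EDA-A2, had 0 counts in all 6 libraries. That allows at most 0.0801 CPM in the shallowest library, so no comparison could be made. Its relative *Edar* was also at 0 in every library.

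Of the metabolic targets, *Sesn2* (ENSMUSG00000028893.9, chr4:132219335-132237815, minus strand), a sestrin that senses leucine and restrains mTORC1, had 4.72, 2.97 and 4.66 CPM in WT and 3.93, 3.92 and 4.64 CPM in BIT libraries. The BIT mice lay within the WT range. The log2 difference was 0.09 with an SE of 0.216 and an interval from -0.40 to 0.58 (limma-voom, adjusted p = 0.922), and with WT replicate 2 left out its sign turned, to -0.09.

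The other sestrins were far higher in these cells. Per length, *Sesn1* exceeded *Sesn2* between 16.6 and 25.2 times and *Sesn3* exceeded it between 28.3 and 43.1 times in single libraries on the canonical transcripts, and on the length of all annotated exons the medians of *Sesn1*, *Sesn3* and *Sesn2* were 11.5, 21.1 and 0.945 RPKM. *Sesn1*, also a p53 target, had 58.9 ± 2.73 CPM in WT and 55.0 ± 5.01 CPM in BIT (SD, n = 3) and a log2 difference of -0.16 (limma-voom, adjusted p = 0.64). *Sesn3*, which is regulated by FOXO factors, had a log2 difference of 0.20 (unadjusted p = 0.0496, adjusted p = 0.582). Of the 8 metabolic and antioxidant targets tested 0 were called, with *Gpx1*, a glutathione peroxidase with the highest level per length of annotated exon in the list, at a log2 difference of -0.08 (adjusted p = 0.891).

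In all, the groups did not overlap for 4 of the 8 tested members, 3 with BIT higher (*Phlda3*, *Aen* and *Trp53inp1*) and 1 with BIT lower (*Mdm2*), beside 13.3% of all genes, 7.38% higher and 5.96% lower. On TMM values there were 3, beside 13.6%, and on library totals 4, beside 12.8%. *Mdm2* and *Trp53inp1* were apart on each of the 3 scales. After quantile normalization the exact permutation test gave its smallest possible p of 0.1 for each of the 4 members. Groups of 3 that do not overlap always give this value, so it restates the count. On library totals the exact permutation test gave p = 0.3 for *Phlda3*. None of the 4 passed the test over all genes.

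The likeness of each pattern to that of *Trp53* was described over the 6 libraries of both genotypes, which share 1 quantile scaling. Pearson's r of the quantile-normalized log2 CPM with *Trp53* ran from -0.686 for *Zmat3* to 0.272 for *Mdm2*. The genes most like *Trp53* by this measure were *Trdc*, the constant region of the TCR δ chain, with 0.998, *Gm36417* with 0.994 and *Bphl*, a hydrolase, with 0.99, among 80 genes above 0.95. These are the highest values in a search of 16105 genes over only 6 libraries, and whether they exceed what such a search gives by chance was not tested.

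The rest of the pathway was described by 7 lists of 55 genes, of which 49 were tested. Of these, 1 was called changed, *Bbc3*, where 0.137% of all genes were called. At an unadjusted p below 0.05 there were 4, with *Bbc3*, *Pmaip1* and *Dglucy* higher and *Plk2* lower. The second count, 4 of 49, is near the share of 8.57% over all genes. Fits were positive in 27 and negative in 22, with a median log2 fold change of 0.04. None of the 6 DNA repair targets, which include *Pcna*, the sliding clamp of replication with a median of 68.6 RPKM, was called, and their median was -0.01. None of the 7 cell death targets outside the BCL2 family was called either, with a median of -0.18, and *Ei24*, an endoplasmic reticulum protein and the highest of them per length with 19.1 RPKM, stood at 0.12. Among the 4 other targets tested, *Dglucy*, an enzyme of D-glutamate breakdown, stood at 0.35 (limma-voom, unadjusted p = 0.0385, adjusted p = 0.559).

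**Figure D4:**
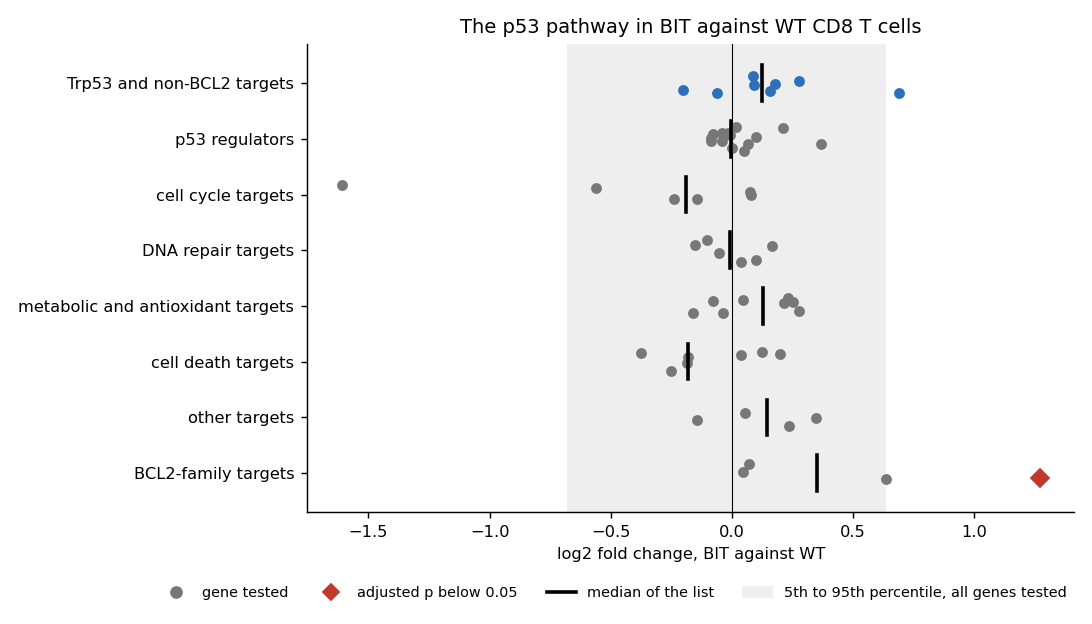
Log2 fold change, BIT against WT, of each gene tested in the member list and in 7 lists of the wider p53 pathway, with 1 point per gene and a bar at the median of each list. The grey band holds the 5th to 95th percentile of all genes tested, and *Bbc3*, at 1.27, is the only gene drawn with an adjusted p below 0.05.

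Set beside the members were 4 BCL2-family targets of p53, of which 1 was called, higher in BIT, where 0.137% of all genes were called. That gene, *Bbc3*, was already reported by the paper as higher in BIT CD8 T cells in these data. *Bbc3*, which encodes the BH3-only protein PUMA, had 1247, 951 and 589 counts in WT and 1946, 2028 and 1750 counts in BIT libraries. It was higher in all 3 BIT mice than in any WT mouse, with a log2 difference of 1.27 and an SE of 0.165 (limma-voom, adjusted p = 0.0399), and it rose 2.41-fold with an interval from 1.86 to 3.12. The call was lost with edgeR (adjusted p = 0.0708) and when any mouse other than WT replicate 3 was left out, with adjusted p-values from 0.0758 to 0.277, while the log2 difference stayed at 1.26 with edgeR and between 1.23 and 1.44 in those left-out fits. Without WT replicate 3 it was 1.08 (limma-voom, adjusted p = 0.0124). *Pmaip1*, the gene of the BH3-only protein NOXA, had 278, 263 and 348 counts in WT and 384, 393 and 383 counts in BIT libraries, a log2 difference of 0.63 (unadjusted p = 0.00362, adjusted p = 0.385). *Bax* and *Bid*, the pore former and its activator, stood at 0.07 (adjusted p = 0.869) and 0.05 (adjusted p = 0.957). The lower end of the *Bbc3* interval, 1.86-fold, lay above the upper end of the interval of every tested member except *Phlda3*, which reached 2.58-fold; the difference between *Bbc3* and the members was not itself tested.

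**Figure D5:**
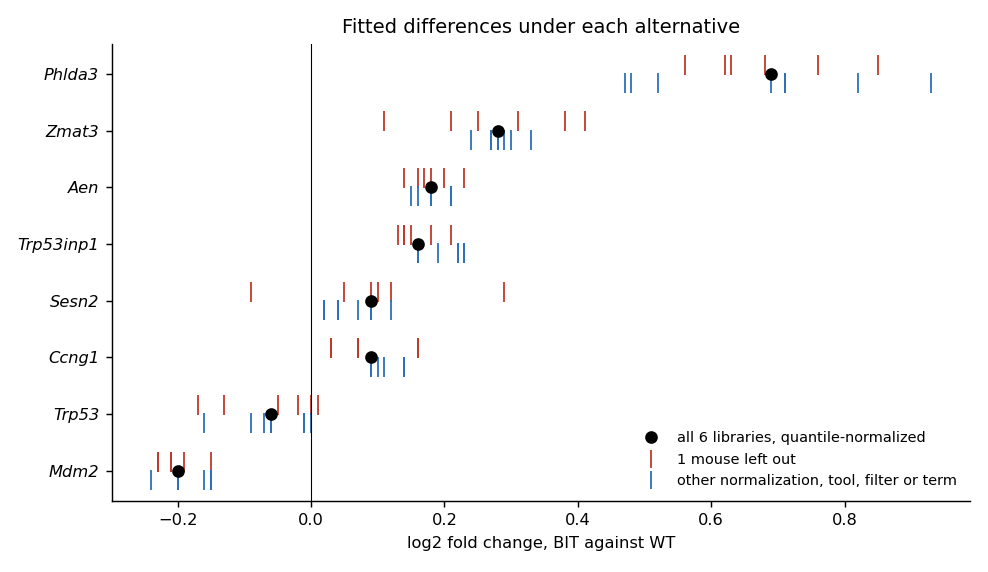
Log2 fold change, BIT against WT, of each tested member under each processing alternative, with the reported value marked. The values of *Trp53* and *Sesn2* cross 0 when single mice are left out, and those of *Mdm2* stay below 0 and those of *Ccng1*, *Zmat3*, *Phlda3*, *Aen* and *Trp53inp1* above it in every setting shown.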

How the data were processed

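RNA depleted of ribosomal RNA was sequenced as 100-base pairs from 3 WT and 3 BIT mice. Per the submitters' processing notes and the paper, the authors used Cutadapt 1.18 for trimming, STAR 2.7.0f for alignment to GRCm39 and RSEM 1.3.1 with Gencode M38 for the expected counts per gene that were deposited. RSEM shares reads between similar genes. The library kit keeps strand, but the strand setting of counting is not given in the sources used here, so reads of overlapping antisense genes may be included. Positions and lengths are from Gencode M39, which holds 78263 of the 78275 identifiers. RPKM values were computed from the deposited counts, library totals and canonical transcript lengths.

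Expected counts were rounded, filtered with filterByExpr (edgeR 4.0.16) and tested with limma 3.58.1 (voom, quantile normalization, no covariates) in R 4.3.3, with Benjamini-Hochberg adjustment over 16105 genes and a call at an adjusted p below 0.05. Exact permutation tests were two-sided. Alternatives were DESeq2 1.42.0, edgeR's quasi-likelihood test, TMM, other filters (none, or a mean of at least 1 CPM), a block for the replicate number, quality weights, a term for replicate 3, replicates 1 and 2 alone, and each mouse left out. The edgeR, DESeq2 and left-out fits of *Cdkn1a* without a filter were added after seeing the data. The scripts were tested on simulated data.

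The members and lists were chosen with earlier results of these data known. Named genes are the 10 members, genes of the lists with an unadjusted or adjusted p below 0.05, the gene of each pathway list with the highest level per kilobase of annotated exon, *Mdm4*, *Bbc3*, *Bax*, *Pmaip1*, relatives of members, and the 3 genes most correlated with *Trp53*. Under this rule the CD8 marker *Cd3g* had a log2 difference of -0.34 (limma-voom, unadjusted p = 0.0166, adjusted p = 0.531). The 5 stromal markers summed to 92.9 to 121 CPM, most of it *Pecam1*, and the 5 erythroid markers to 1.8 to 56.7 CPM. Named outside the rule, after values were seen, were *Bid*, *Atm*, *Atr*, *Chek1*, *Chek2*, *Cdkn2a*, the genes that overlap members, *Trp53-ps*, *Xist*, *Psmb8* and *Psmb11*. So were the markers *Gzma*, *Ncr1*, *Klrb1c*, *Itgam*, *Lyz2*, *Csf1r*, *Adgre1*, *Cd14*, *Fcer1g* and *Pecam1*.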

Additional observations from a re-analysis of the deposited data

How the results depend on the processing

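None of the members tested was called under the reported fit or the 15 alternatives, where *Phlda3* was not tested with a mean of at least 1 CPM, and under the alternatives that tested them the direction held for *Mdm2*, *Ccng1*, *Zmat3*, *Phlda3*, *Aen* and *Trp53inp1*. The number of members whose groups did not overlap was 3 to 4 across scalings. With single mice left out the log2 differences ran from -0.17 to 0.01 for *Trp53*, from -0.09 to 0.29 for *Sesn2*, from 0.00 to 0.13 for *Bax*, from -0.15 to 0.15 for *Bid* and from -0.12 to 0.10 for *Mdm4*. *Mdm4* also turned to 0.03 with TMM, 0.04 with edgeR and 0.04 with DESeq2, and *Bid* to -0.06 with quality weights and -0.18 in replicates 1 and 2 alone; the cause was not tested. Without WT replicate 3 the log2 differences were -0.23 for *Mdm2*, 0.03 for *Ccng1*, 0.76 for *Phlda3* and 0.09 for *Sesn2*. They were 0.14 for *Aen*, 0.18 for *Trp53inp1* and 0.79 for *Pmaip1*. The number of wider pathway genes called went from 1 to 0 with edgeR, and lay between 0 and 1 with a mouse left out. Over all genes 22 were called in the reported fit, with a mouse left out as few as 1 (WT replicate 1 removed) and as many as 37 (WT replicate 3 removed), 14 with edgeR, 125 with DESeq2, 42 with a term for replicate 3 and 71 in replicates 1 and 2 alone.

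Same-numbered WT and BIT mice correlated in their deviations at 0.139, 0.0255 and 0.332, and not every library correlated best with its own number, so the numbers were not taken as pairs. With the replicate block 0 members were called, *Bbc3* kept a log2 difference of 1.26 (limma-voom, adjusted p = 0.038), and 21 genes were called in all. Depth limits *Cdkn1a*, *Phlda3* and *Eda2r*, which had 47 counts or fewer in each library.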
